A study of Homo sapiens with 12 samples.

Results

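The histone genes were taken as the genes whose symbol begins with H1-, H2AC, H2BC, H3C, H4C, H2AZ, H3-3 or MACROH2A, or is H2AX, H2AJ or H4-16. Of 82 protein-coding genes with such a symbol in the RefSeq gene table, 49 had a probe set that the array annotation gives to that gene alone. These 49 were among the 11963 genes tested. They comprised 6 linker histones (H1), 8 H2A genes, 12 H2B genes, 7 H3 genes, 8 H4 genes and 8 replacement variants, and 38 of them lie on chromosome 6. H1-10, which encodes a linker variant, was counted among the replacement variants and not among the 6 linker histones. A gene with several probe sets was represented by the one with the highest mean over all arrays. No filter on low values was applied, but 24 of the 49 were dim, meaning that their mean over all arrays was in the lowest 25% of genes, where RMA values carry little signal and their order means little.

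The study asked how loss or gain of LSD2 changes RNA levels in MDA-MB-231 cells, an established human breast cancer line of mesenchymal type without hormone receptors. LSD2 (KDM1B) is a flavin-dependent demethylase of lysine 4 of histone H3. Its arrays hold 4 groups of 3 biological replicates: stable transfection with a scramble shRNA, with an LSD2 shRNA, with an eGFP/Flag vector, or with an LSD2/eGFP/Flag vector. All 4 groups were grown with G418 to select transfected cells, so no group is the untransfected line. The labels name neither the promoters of the constructs nor the LSD2 shRNA's target site, and do not tell clones from pools. The replicates of a group may all stem from 1 line, so its effect cannot be told apart from that of the transfected line, and p-values measure only the spread between these samples. Differences below are log2 values of the LSD2 shRNA minus the scramble shRNA arrays, or of the LSD2/eGFP/Flag minus the eGFP/Flag arrays, each with its standard error. Calls were made below an adjusted p of 0.05 (limma, all 12 arrays in 1 fit, Benjamini-Hochberg over all genes tested).

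Histones package DNA: pairs of H2A, H2B, H3 and H4 form the nucleosome core, and H1 binds the linker DNA where it enters and leaves. Most histone genes are replication-dependent copies in clusters, the main one on the short arm of chromosome 6. They are transcribed in S phase, and their mRNAs end in a stem-loop bound by SLBP instead of a poly(A) tail. Replacement variants such as H2A.Z, H3.3 and the macroH2A proteins are made throughout the cell cycle from polyadenylated mRNAs. Labelling kits that prime from poly(A) therefore read mainly the variants and those replication-dependent genes that also make polyadenylated transcripts. The labels name such a kit for linear amplification, so the values below may not stand for total histone mRNA.

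Promoter sequences from RefSeq (GRCh38.p14) were found for 46 of the 49 genes. Those shown are of called genes, with H1-4 and H2BC11 as relatives of H1-2 and H2BC12 that were not called, and they display the elements typical of the histone families. Each line gives the 150 bases before the transcription start, 5′ to 3′ on the gene's strand. Capitals mark matches on either strand to 4 motifs. CCAAT is the box bound by the factor NF-Y, and TATAAA is a core promoter element near the start. ATTTGCAT is the octamer, bound by OCT1 in H2B promoters. AAACACA is the H1 box of linker histone promoters. H1-2 lies at chr6:26056471-26056620 on the minus strand, and H1-4, not called in either comparison, at chr6:26156179-26156328 on the plus strand. H2BC12 lies at chr6:27146859-27147008 (minus), its uncalled neighbour H2BC11 at chr6:27132796-27132945 (minus) and H2BC9 at chr6:26251464-26251613 (plus). H2AX lies at chr11:119095466-119095615 (minus) and MACROH2A2 at chr10:70052696-70052845 (plus).
H1-2: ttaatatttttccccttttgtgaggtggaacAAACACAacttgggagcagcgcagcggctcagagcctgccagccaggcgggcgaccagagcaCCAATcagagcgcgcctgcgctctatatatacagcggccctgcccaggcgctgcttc
H1-4: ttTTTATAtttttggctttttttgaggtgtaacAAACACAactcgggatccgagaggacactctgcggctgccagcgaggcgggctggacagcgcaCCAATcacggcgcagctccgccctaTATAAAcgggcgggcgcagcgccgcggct
H2BC12: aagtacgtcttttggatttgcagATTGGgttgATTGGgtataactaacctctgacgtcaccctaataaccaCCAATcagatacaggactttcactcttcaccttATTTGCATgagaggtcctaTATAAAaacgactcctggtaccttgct
H2BC11: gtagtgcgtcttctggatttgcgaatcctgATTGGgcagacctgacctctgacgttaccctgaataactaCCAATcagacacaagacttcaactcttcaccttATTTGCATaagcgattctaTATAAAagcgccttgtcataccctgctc
H2BC9: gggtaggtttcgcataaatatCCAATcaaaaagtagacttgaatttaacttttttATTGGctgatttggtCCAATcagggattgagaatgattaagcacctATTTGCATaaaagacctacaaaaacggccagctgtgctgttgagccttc
H2AX: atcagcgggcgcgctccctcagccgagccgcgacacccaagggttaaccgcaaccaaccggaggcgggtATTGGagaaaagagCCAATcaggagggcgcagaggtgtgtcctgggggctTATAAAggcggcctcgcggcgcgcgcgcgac
MACROH2A2: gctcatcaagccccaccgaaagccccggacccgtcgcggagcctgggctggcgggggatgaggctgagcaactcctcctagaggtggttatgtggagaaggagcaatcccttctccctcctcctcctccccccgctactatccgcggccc

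Over the 250 bases before the start, CCAAT was present in 38 of the 46 histone promoters (82.6%) against 33.0% of 27305 promoters of all genes. TATAAA was present in 28 (60.9%, against 11.1%). The octamer was present in 14 (30.4%, against 1.66%): 8 of 11 H2B promoters and 6 of 8 H2A promoters held it, and no promoter of the other roles did. These promoters are not all separate DNA. H2AC14 with H2BC14, H2AC15 with H2BC15 and H2AC17 with H2BC17 lie back to back, and their 250 bases overlap. The octamer shared by H2AC14 and H2BC14, and that shared by H2AC17 and H2BC17, were each counted for both genes. The H1 box was present in 6 (13.0%, against 4.95%), which were the 6 linker histone promoters. The promoter of H1-10, counted with the replacement variants, did not hold it. These shares are descriptions of the letters only, and a match is not a bound site. Promoters were found for 5 genes called higher with the LSD2 shRNA, 17 called in the vector comparison and 27 called in neither. CCAAT was present in 5, 12 and 24 of these, TATAAA in 3, 9 and 18, the octamer in 3, 4 and 9, and the H1 box in 1, 1 and 5. Whether any element goes with a change was not tested, and dim members could be called less easily. The H2BC12 and H2BC11 windows both carry CCAAT, the octamer and TATAAA, while H1-2 and H1-4 share CCAAT and the H1 box, and TATAAA lies in the H1-4 window alone of these 2. MACROH2A2, the gene with the largest difference among the members, held none of the 4 motifs.

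The arrays differ in ways that bear on every value below. Medians of the deposited log2 values were 6.65 to 6.71 on the shRNA arrays and 7.03 to 7.18 on the vector arrays, which appear to have been normalized separately, so levels are not compared across these. Arrays of a group correlated at 0.996 to 0.998, scramble with LSD2 shRNA arrays at 0.991 to 0.994, and eGFP/Flag with LSD2/eGFP/Flag arrays at only 0.904 to 0.908. Of 12 genes that mark MDA-MB-231 cells, all 12 fell in the LSD2/eGFP/Flag arrays, and their summed log2 values were 87.68 to 89.11 there against 145.82 to 146.29 with eGFP/Flag. Among them CD44 went from 12.41 ± 0.20 to 3.99 ± 0.07 (SD, n = 3) and ANXA1 from 13.25 ± 0.13 to 4.65 ± 0.06, while VIM was still bright after its fall, at 12.73 ± 0.19. On the shRNA arrays the sums were 144.15 to 145.40 with scramble and 143.78 to 144.72 with the LSD2 shRNA, and 1 of the 12 fell. Luminal or epithelial markers, by contrast, summed to 76.68 to 76.99 with scramble and 78.75 to 79.75 with the LSD2 shRNA, where 3 of 12 rose (EPCAM by 0.57, FOXA1 by 0.74 and XBP1 by 0.61) and 0 fell. Blood markers summed to 22.02 to 22.14 and 21.82 to 22.53, with LYZ higher by 0.35, and neural or germ cell markers to 33.63 to 33.77 and 33.51 to 33.82, with none called. The part of these markers in the histone rises with the LSD2 shRNA was not tested. Summed values of 6 neural or germ cell markers were 35.36 to 35.37 with eGFP/Flag and 45.54 to 46.49 with LSD2/eGFP/Flag, where 3 rose and 2 fell. NEFM rose by 6.74, NEFL by 3.25 and SOX2 by 1.32, while TUBB3 fell by 0.68 and LIN28A by 0.21. In the same groups, the sums of the luminal or epithelial markers were 83.69 to 85.36 and 77.70 to 78.45. These markers split, with 3 of 12 higher (ERBB3 at 2.11, GATA3 at 2.00 and XBP1 at 0.77) and 4 lower. The 4 were KRT19 at -5.22, KRT8 at -2.90, EPCAM at -2.58 and ESRP1 at -0.27. Sums of the 5 blood markers were 23.94 to 24.37 and 23.80 to 24.08. The LSD2/eGFP/Flag arrays thus go against the labelled line in all 12 of its markers, though some, such as VIM, stayed bright. The part of this in the histone differences of the vector comparison was not tested. That comparison has no value without these 3 arrays. KDM1B itself had 0 probe sets, so the targeted gene could not be checked in any array. In bulk RNA, fewer cells of a type and less RNA per cell cannot be told apart.

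In cells with the LSD2 shRNA, 6 of the 49 histone genes rose and 0 fell, and 5 of the 6 that rose encode H2B. The remaining 43 were not called. The largest rise was that of H1-2, a linker histone, at 1.35 ± 0.16. The 6 were 12.2% of the 49, against 10.5% of all genes called in either direction (5.00% higher and 5.53% lower). The share called in either direction was thus near that of all genes, but all 6 rose, beside 5.00% of all genes. However, 4 of the 6 are read by _x_at probe sets, whose probes can match other sequences, so they may not be separate rises. With such sets left out, 2 of 42 members rose and 0 fell, beside 596 higher and 652 lower of all genes then tested. Of the 24 dim members 0 were called, and of the other 25 members 6 were. With dim genes left out of the fit, 7 of 25 members rose and 0 fell, beside 645 higher and 706 lower of 8972 genes. At an unadjusted p under 0.05 (limma), 12 of the 49 were higher and 2 lower, beside 1316 higher and 1439 lower of all 11963 genes. Beside these rises, 3 of 12 luminal or epithelial markers also rose. The median difference was 0.08 over the 49 and -0.01 over all genes, with 34 values above 0 and 15 below. Fitted without the 6 vector arrays, the comparison again gave 6 higher and 0 lower.

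**Figure D1:**
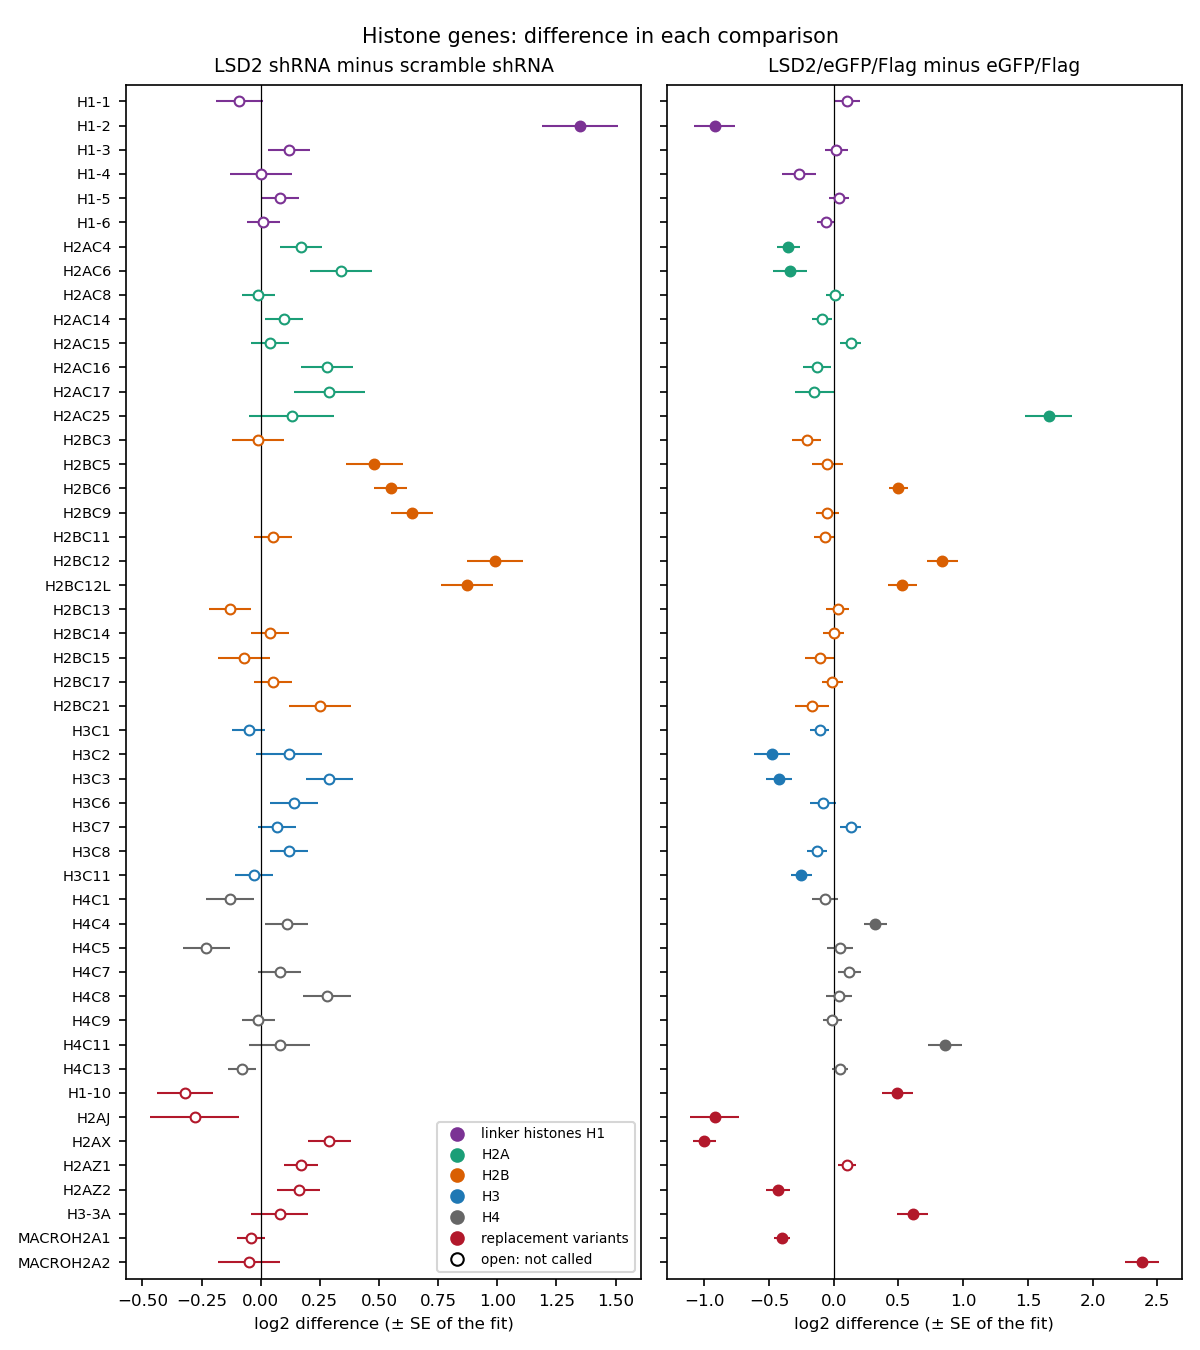
Log2 difference of each of the 49 histone genes, ordered and coloured by role, for the LSD2 shRNA minus the scramble shRNA and for LSD2/eGFP/Flag minus eGFP/Flag, with its standard error and a scale of its own for each panel; filled points were called. The 6 genes called with the LSD2 shRNA all lie above 0, and the 19 called in the vector comparison lie on both sides.

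Of the 6 linker histones, H1-2 was the 1 that rose with the LSD2 shRNA. H1-2 encodes H1.2, a replication-dependent linker histone also found as a polyadenylated transcript. Its log2 values were 8.54, 8.66 and 8.33 with the scramble shRNA and 10.09, 9.79 and 9.71 with the LSD2 shRNA. The means were 8.51 ± 0.17 and 9.86 ± 0.20 (SD, n = 3), a difference of 1.35 ± 0.16 or 2.55-fold (adjusted p = 2.2e-04, limma). Every LSD2 shRNA array lay above every scramble array, by more than the spread within either group. The others of these 6 ranged from -0.09 to 0.12, with H1-1 at -0.09, H1-3 at 0.12, H1-4 at 0.00, H1-5 at 0.08 and the testis-specific H1-6 at 0.01. H1-10, counted with the replacement variants, was at -0.32 and was not called. H1-4 had 6.01, 5.69 and 6.29 with scramble and 6.06, 5.99 and 5.96 with the LSD2 shRNA, and these values overlap.

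Of the 12 H2B genes, 5 rose with the LSD2 shRNA and 7 were not called. H2BC12, whose mRNA is among the H2B transcripts known in polyadenylated form, had 9.84, 10.06 and 9.54 with scramble and 11.01, 10.78 and 10.63 with the LSD2 shRNA. This is a difference of 0.99 ± 0.12 or 1.99-fold (adjusted p = 2.6e-04, limma). H2BC12L, an H2B gene on chromosome 21, had 8.05, 8.27 and 7.89 with scramble and 9.10, 8.85 and 8.88 with the LSD2 shRNA. The difference was 0.87 ± 0.11 (adjusted p = 4.1e-04, limma). Both genes show groups that do not overlap, with gaps wider than the spread within each group.

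H2BC6 and H2BC9 lie in the chromosome 6 cluster and encode canonical H2B proteins. H2BC6 had 7.12, 7.23 and 7.07 with scramble and 7.68, 7.68 and 7.70 with the LSD2 shRNA, a difference of 0.55 ± 0.07 (adjusted p = 3.2e-04, limma). H2BC9 had 5.72, 5.81 and 5.68 with scramble and 6.50, 6.19 and 6.43 with the LSD2 shRNA, a difference of 0.64 ± 0.09 (adjusted p = 0.00101, limma). The LSD2 shRNA values of H2BC6 are nearly equal, while those of H2BC9 are more spread, and neither gene overlaps between groups. H2BC5, which encodes H2B type 1-D, had 7.70, 8.05 and 7.71 with scramble and 8.44, 8.22 and 8.24 with the LSD2 shRNA, a difference of 0.48 ± 0.12 (adjusted p = 0.0200, limma). Its groups are the closest of the 6, with 8.05 as the highest scramble value and 8.22 as the lowest LSD2 shRNA value. It was no longer called without scramble replicate 1 (adjusted p = 0.0913), scramble replicate 3 (0.0717) or LSD2 shRNA replicate 1 (0.0952), all by limma.

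In all 6 genes scramble replicate 2 was the highest scramble array, and in 5 of them LSD2 shRNA replicate 1 was the highest LSD2 shRNA array. Of the 5 H2B genes that rose, 4 were read by _x_at probe sets, whose probes can match other sequences. These were all 4 of the H2B genes read by such sets. Among the 8 H2B genes read by other sets, 1 rose. Over the 49, 4 of 7 genes on _x_at sets rose, against 2 of 32 on _at sets and 0 of 10 on _s_at sets. The H2B genes share most of their coding sequence, so their rises are not independent measurements, and the share of each gene in an _x_at value was not tested. H1-2 and H2BC12 are read by _at sets.

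The 7 H2B genes that were not called ranged from -0.13 to 0.25. These were H2BC3 (-0.01), H2BC11 (0.05), H2BC13 (-0.13), H2BC14 (0.04), H2BC15 (-0.07), H2BC17 (0.05) and H2BC21 (0.25). H2BC11 lies among the dim genes, at 4.35 on each scramble array and 4.35, 4.50 and 4.35 with the LSD2 shRNA. A change in it may therefore not have been detectable. H2BC21, on chromosome 1, had groups that do not overlap, with a lowest LSD2 shRNA value of 5.38 against a highest scramble value of 5.37.

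None of the 8 H2A, 7 H3 or 8 H4 genes was called with the LSD2 shRNA (0 called by limma). At an unadjusted p under 0.05, 2 H2A genes were higher, 1 H3 gene was higher, and of the H4 genes 1 was higher and 1 lower. Over all 11963 genes, 1316 were higher and 1439 lower at this threshold. The medians were 0.15 for H2A, 0.12 for H3 and 0.03 for H4. The H2A genes were H2AC4 at 0.17, H2AC6 at 0.34, H2AC8 at -0.01, H2AC14 at 0.10, H2AC15 at 0.04, H2AC16 at 0.28, H2AC17 at 0.29 and H2AC25 at 0.13. Of these H2AC6, a polyadenylation-competent H2A gene, had 7.04, 7.22 and 6.80 with scramble and 7.44, 7.31 and 7.32 with the LSD2 shRNA. Its groups do not overlap, and its adjusted p was 0.123 (limma), or 0.0409 with the replicate number as a block. The H3 genes were H3C1 at -0.05, H3C2 at 0.12, H3C3 at 0.29, H3C6 at 0.14, H3C7 at 0.07, H3C8 at 0.12 and H3C11 at -0.03. The H4 genes, which apart from H4C7 encode the same protein, were H4C1 at -0.13, H4C4 at 0.11, H4C5 at -0.23, H4C7 at 0.08, H4C8 at 0.28, H4C9 at -0.01, H4C11 at 0.08 and H4C13 at -0.08.

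None of the 8 replacement variants was called either (0 by limma; at an unadjusted p under 0.05, 2 were higher and 1 lower). H2AX, the variant phosphorylated at DNA breaks, came closest. It had 10.88, 10.70 and 10.80 with scramble and 11.19, 11.11 and 10.96 with the LSD2 shRNA, a difference of 0.29 ± 0.09 (adjusted p = 0.0525, limma). The groups do not overlap, and the adjusted p ranged from 0.0254 to 0.264 over the alternatives. H1-10, which encodes the linker variant H1.10, had the lowest difference of the 49. Its values were 9.80, 9.91 and 9.54 with scramble and 9.43, 9.58 and 9.29 with the LSD2 shRNA, a difference of -0.32 ± 0.12 (adjusted p = 0.115, limma), and the groups overlap. H2AJ, a chromosome 12 H2A variant, was at -0.28 ± 0.19. The H2A.Z genes were at 0.17 ± 0.07 (H2AZ1) and 0.16 ± 0.09 (H2AZ2), H3-3A at 0.08 ± 0.12, MACROH2A1 at -0.04 ± 0.06 and MACROH2A2 at -0.05 ± 0.13.

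Groups did not overlap for 13 of the 49 genes in this comparison, against 28.3% of all genes. The 7 of these that were not called were H1-3, H2AC6, H2AC16, H2AX, H2AZ2, H2BC21 and H4C8, all with higher values with the LSD2 shRNA.

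**Figure D2:**
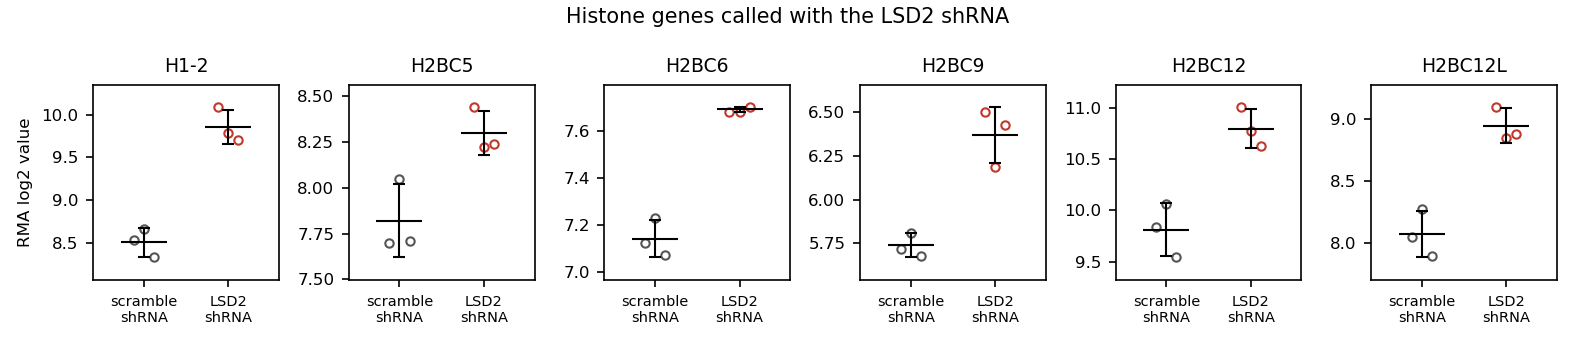
RMA log2 value of each array for the 6 histone genes that rose with the LSD2 shRNA, 1 panel a gene with its own vertical scale; points are arrays, the long bar is the mean and the error bar is the SD (n = 3). In each panel the 3 LSD2 shRNA arrays lie above the 3 scramble arrays, with the narrowest gap in H2BC5.

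In the vector comparison, 9 of the 49 histone genes rose and 10 fell, while 30 stayed below the threshold for a call. The largest rise was that of MACROH2A2 (2.38 ± 0.13), and the largest fall that of H2AX, which fell by 1.00 ± 0.09. Replacement variants made up 7 of the 19 that changed. The 19 were 38.8% of the 49, beside 57.0% of all genes (30.9% higher and 26.1% lower). The median difference was -0.05 over the 49 and 0.01 over all genes, and groups did not overlap for 22 of the 49, against 61.1% of all genes. Many members are dim: 4 of the 24 dim members and 15 of the other 25 were called, the latter beside 67.7% of all genes that are not dim. All of these differences rest on the LSD2/eGFP/Flag arrays, on which the 12 markers of the line also fell.

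Of the 8 replacement variants, 3 rose, 4 fell and 1 was not called, and for all 8 the 3 arrays of one group lay apart from the 3 of the other. The macroH2A genes encode H2A variants with a large globular macro domain, known for a role in silent chromatin. MACROH2A2 had 6.48, 6.74 and 6.12 with eGFP/Flag and 9.01, 8.86 and 8.62 with LSD2/eGFP/Flag, a difference of 2.38 ± 0.13 or 5.22-fold (adjusted p = 3.2e-09, limma). MACROH2A1 had 13.33, 13.30 and 13.24 with eGFP/Flag and 12.92, 12.94 and 12.80 with LSD2/eGFP/Flag, a difference of -0.40 ± 0.06 or 1.32-fold lower (adjusted p = 9.5e-05, limma). The 2 macroH2A genes thus moved in opposite directions.

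MACROH2A1 has 3 probe sets listed for it alone, and all 3 fell by very different amounts. A second set was at -0.33 ± 0.07 (adjusted p = 9.8e-04, limma). The third had 9.76, 9.57 and 10.13 with eGFP/Flag and 6.56, 5.81 and 6.42 with LSD2/eGFP/Flag, a difference of -3.56 ± 0.20 (adjusted p = 3.8e-09, limma over all probe sets). MACROH2A1 makes splice forms that exchange 1 exon (macroH2A1.1 and macroH2A1.2). Which form each probe set reads was not analysed here. With the LSD2 shRNA these other sets were at -0.16 and -0.13, and neither was called.

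H2AX fell with LSD2/eGFP/Flag from 12.32, 12.26 and 12.25 to 11.32, 11.41 and 11.12. The means were 12.28 ± 0.04 and 11.28 ± 0.15 (SD, n = 3), so that it fell by 1.00 ± 0.09 or 1.99-fold (adjusted p = 3.3e-07, limma). Its other 3 probe sets also fell, by 0.74, 0.59 and 0.48. H2AZ2, which encodes H2A.Z.2, fell from 12.29, 12.21 and 12.11 to 11.80, 11.96 and 11.55, a difference of -0.43 ± 0.09 (adjusted p = 0.00113, limma). Its other 2 sets were at -0.36 and -0.61. The first of these lost its call when eGFP/Flag replicate 1 (adjusted p = 0.0618) or replicate 3 of LSD2/eGFP/Flag (0.0647) was left out of the limma fit. H2AZ1, which encodes the near-identical H2A.Z.1, was the variant that was not called, at 0.10 ± 0.07 (adjusted p = 0.255, limma). Both H2A.Z genes lie far above the dim range on every array.

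H2AJ fell from 5.65, 4.82 and 4.85 to 4.41, 4.06 and 4.08, a difference of -0.92 ± 0.19 (adjusted p = 6.7e-04, limma). It lies among the dim genes, so its size is uncertain. H1-10 rose from 9.91, 9.83 and 10.17 to 10.56, 10.33 and 10.48, a difference of 0.49 ± 0.12 (adjusted p = 0.00269, limma). H3-3A, 1 of 2 genes for the replacement histone H3.3, rose from 9.49, 9.79 and 9.86 to 10.47, 10.23 and 10.28, a difference of 0.61 ± 0.12 (adjusted p = 5.2e-04, limma). In both H1-10 and H3-3A every LSD2/eGFP/Flag array lay above every eGFP/Flag array.

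Among the linker histones, H1-2 fell from 7.43, 7.86 and 7.98 to 6.55, 7.09 and 6.87. The means were 7.76 ± 0.29 and 6.83 ± 0.27 (SD, n = 3), a difference of -0.92 ± 0.16 (adjusted p = 2.5e-04, limma), the reverse of its direction with the LSD2 shRNA. The other 5 were not called and were at 0.10 (H1-1), 0.02 (H1-3), -0.27 (H1-4), 0.04 (H1-5) and -0.06 (H1-6). H1-10, counted with the replacement variants, rose by 0.49.

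Of the 12 H2B genes, 3 rose in the vector comparison and 9 were not called. These 3 were H2BC12, H2BC12L and H2BC6, which also rose with the LSD2 shRNA. H2BC12L and H2BC6 are read by _x_at probe sets, whose probes can match other sequences. H2BC12 had 10.34, 10.45 and 10.35 with eGFP/Flag and 11.14, 11.27 and 11.25 with LSD2/eGFP/Flag, a difference of 0.84 ± 0.12 (adjusted p = 4.3e-05, limma). H2BC6 had 6.21, 6.15 and 6.01 with eGFP/Flag and 6.64, 6.61 and 6.64 with LSD2/eGFP/Flag, a difference of 0.50 ± 0.07 (adjusted p = 2.8e-05, limma). H2BC12L had 7.52, 7.43 and 7.44 with eGFP/Flag and 8.05, 8.15 and 7.77 with LSD2/eGFP/Flag, a difference of 0.53 ± 0.11 (adjusted p = 0.00134, limma). None of the 3 overlapped between groups. H2BC5 and H2BC9, the other H2B genes that rose with the LSD2 shRNA, were both at -0.05, with adjusted p of 0.762 and 0.708 (limma). The rest were at -0.21 (H2BC3), -0.07 (H2BC11), 0.03 (H2BC13), 0.00 (H2BC14), -0.11 (H2BC15), -0.01 (H2BC17) and -0.17 (H2BC21).

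Of the 8 H2A genes, 1 rose and 2 fell. H2AC25 lies in the chromosome 1 group of histone genes. It had 5.90, 6.72 and 6.36 with eGFP/Flag and 8.24, 7.69 and 8.01 with LSD2/eGFP/Flag, a difference of 1.66 ± 0.18 or 3.15-fold (adjusted p = 2.4e-06, limma). This was the second largest rise of the 49. H2AC4 fell from 6.14, 6.43 and 6.13 to 5.96, 5.88 and 5.80, a difference of -0.35 ± 0.09 (adjusted p = 0.00518, limma). H2AC6 fell from 6.87, 6.97 and 6.62 to 6.61, 6.61 and 6.23, a difference of -0.34 ± 0.13 (adjusted p = 0.0341, limma). The margin of H2AC6 is narrow: its call was lost without eGFP/Flag replicate 1 (adjusted p = 0.0916), without eGFP/Flag replicate 2 (0.129) and without replicate 3 of LSD2/eGFP/Flag (0.169), all by limma. The other H2A genes were at 0.01 (H2AC8), -0.09 (H2AC14), 0.13 (H2AC15), -0.13 (H2AC16) and -0.15 (H2AC17).

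Of the 7 H3 genes, 3 fell and none rose. H3C3 had 6.06, 6.17 and 6.11 with eGFP/Flag and 5.81, 5.73 and 5.55 with LSD2/eGFP/Flag, a difference of -0.42 ± 0.10 (adjusted p = 0.00259, limma). H3C2 and H3C11 both lie among the dim genes. H3C2 fell from 5.03, 4.93 and 4.64 to 4.49, 4.38 and 4.29, by 0.48 ± 0.14 (adjusted p = 0.00733, limma). H3C11 fell from 4.64, 4.44 and 4.60 to 4.28, 4.27 and 4.37, by 0.25 ± 0.08 (adjusted p = 0.0140, or 0.0570 without eGFP/Flag replicate 1, limma). At such values a difference says little of the transcript. The others were at -0.11 (H3C1), -0.08 (H3C6), 0.13 (H3C7) and -0.13 (H3C8).

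Of the 8 H4 genes, 2 rose and none fell. H4C11, read by an _x_at set, had 6.73, 6.89 and 6.88 with eGFP/Flag and 8.09, 7.49 and 7.48 with LSD2/eGFP/Flag, a difference of 0.86 ± 0.13 (adjusted p = 7.6e-05, limma). LSD2/eGFP/Flag replicate 1 was the highest, and all 3 lay above the eGFP/Flag arrays. H4C4, among the dim genes, had 4.74, 4.74 and 4.63 with eGFP/Flag and 5.23, 4.85 and 4.97 with LSD2/eGFP/Flag, a difference of 0.32 ± 0.09 (adjusted p = 0.00941, limma). The rest were at -0.07 (H4C1), 0.05 (H4C5), 0.12 (H4C7), 0.04 (H4C8), -0.01 (H4C9) and 0.05 (H4C13).

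**Figure D3:**
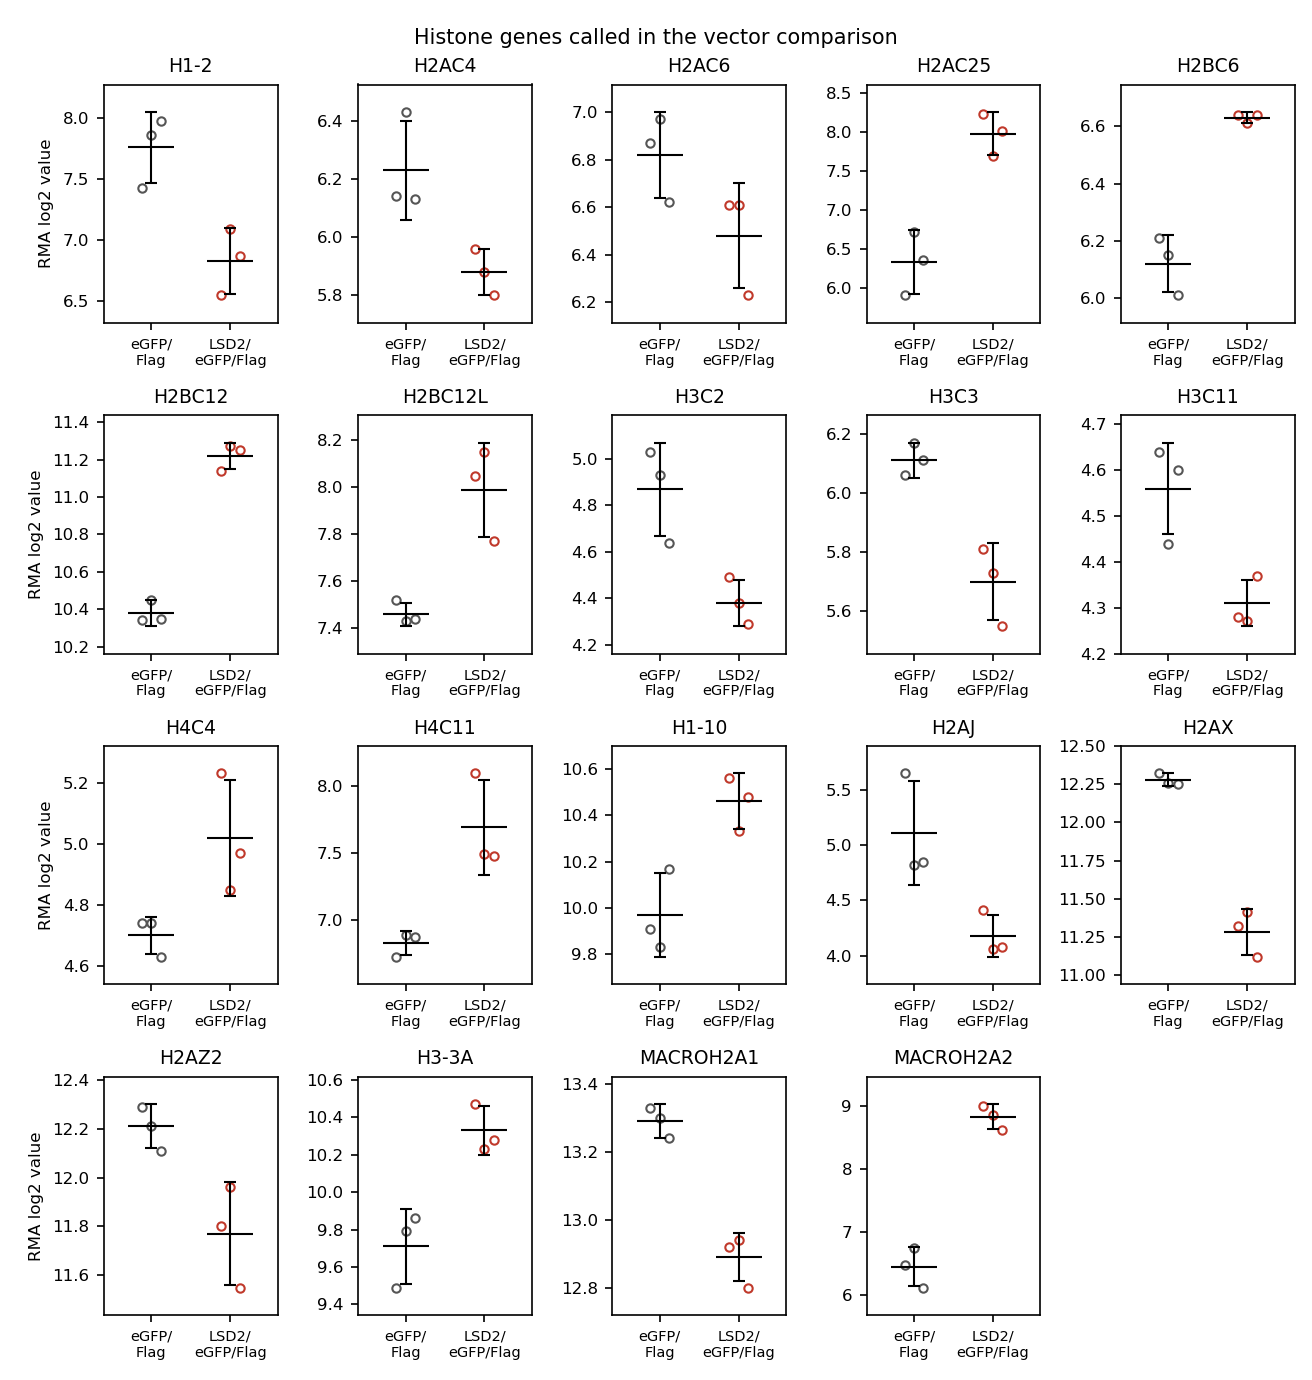
RMA log2 value of each array for the 19 histone genes called in the vector comparison, 1 panel a gene with its own vertical scale; points are arrays, the long bar is the mean and the error bar is the SD (n = 3). The largest differences on the log2 scale are those of MACROH2A2 (2.38) and H2AC25 (1.66), and in H2AC6 the lowest eGFP/Flag array (6.62) lies just above the highest LSD2/eGFP/Flag arrays (6.61).

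The 2 comparisons share no arrays, and the difference between a gene's 2 effects was tested in the same fit. It was called for 15 of the 49 genes (30.6%), against 50.4% of all genes. In 10 of the 15 the effect of the LSD2 shRNA was the more positive, and in 5 that of LSD2/eGFP/Flag. Over all genes, 22.4% were called on the first side and 28.0% on the second. These differences also rest on the LSD2/eGFP/Flag arrays, on which the markers of the line fell. H1-2, the 1 gene called in both comparisons in opposite directions, differed by 2.28 ± 0.23 (adjusted p = 2.2e-06, limma). H2AX differed by 1.29 ± 0.12 (adjusted p = 1.3e-06, limma), H2BC9 by 0.68 ± 0.13 (adjusted p = 7.4e-04, limma) and H2BC5 by 0.53 ± 0.17 (adjusted p = 0.0170, limma). Thus the rise of H2BC5 and H2BC9 with the LSD2 shRNA was larger than their change in the vector comparison.

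H2AC4 (0.53), H2AC6 (0.68), H2AZ2 (0.59), H3C2 (0.61), H3C3 (0.71) and MACROH2A1 (0.37) were the other members whose effect was more positive with the LSD2 shRNA. MACROH2A2 differed by -2.44 ± 0.19 (adjusted p = 1.6e-07, limma) and H2AC25 by -1.53 ± 0.25 (adjusted p = 1.8e-04, limma), both more positive with LSD2/eGFP/Flag. H1-10 (-0.80), H4C11 (-0.77) and H3-3A (-0.54) were the other members on that side. With all arrays shifted to equal medians, the H3-3A difference lost its call (adjusted p = 0.0546, limma).

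Of the 4 genes called in both comparisons, H2BC12, H2BC12L and H2BC6 rose in each. H2BC12 is read by an _at set, but H2BC12L and H2BC6 by _x_at sets, so these rises may not be separate. The difference between their effects was 0.15 ± 0.17 (adjusted p = 0.511), 0.35 ± 0.16 (adjusted p = 0.0935) and 0.05 ± 0.10 (adjusted p = 0.743), all by limma. No difference was called for these 3, which does not show that the effects are equal. That of H2BC12L was called under cyclic loess (0.43, adjusted p = 0.0383), quantile normalization (0.53, 0.0132), equal medians (0.45, 0.0381) and array weights (0.41, 0.0388). It was also called without scramble replicate 2 (0.45, adjusted p = 0.0307) or without replicate 2 of LSD2/eGFP/Flag (0.43, 0.0458), all by limma. In all, 21 of the 49 genes were called in at least 1 comparison and 28 in neither.

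**Figure D4:**
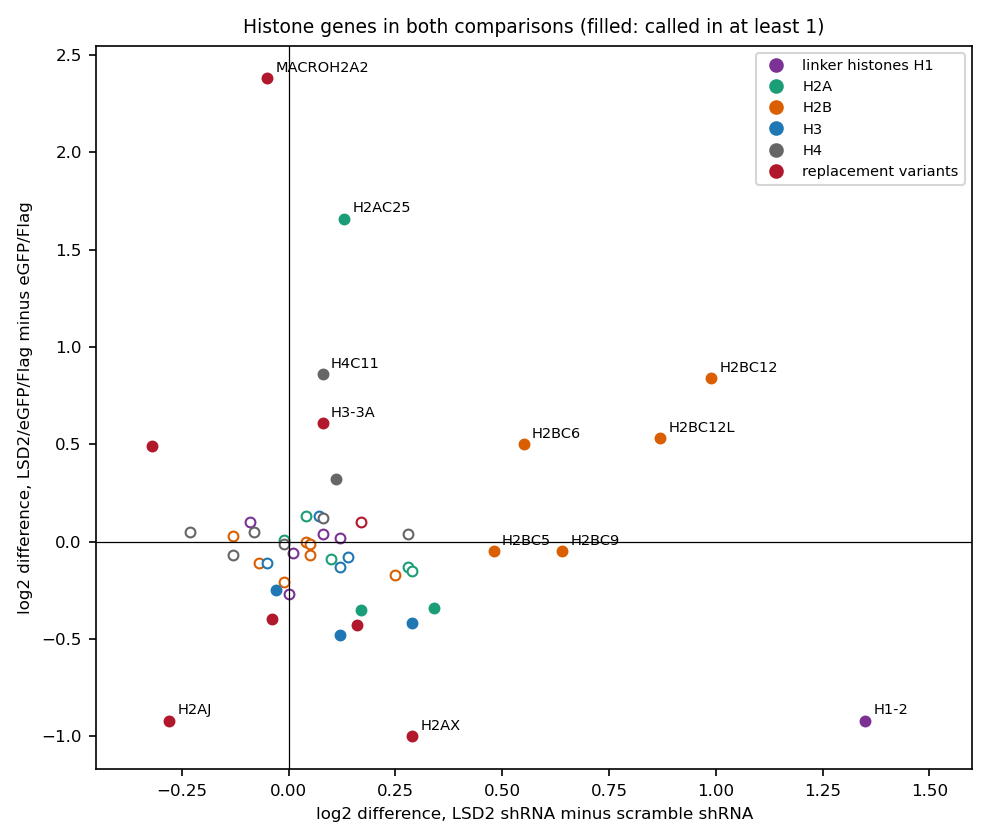
Log2 difference of each of the 49 histone genes with the LSD2 shRNA (horizontal) and with LSD2/eGFP/Flag (vertical), coloured by role; filled points were called in at least 1 comparison, and the larger called differences are named. H2BC12, H2BC12L and H2BC6 are above 0 on both axes, H1-2 lies at the lower right (1.35 and -0.92), and MACROH2A2 lies near 0 on the horizontal axis and at 2.38 on the vertical axis.

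A further 28 probe sets are listed for several genes of which at least 1 is a histone gene, and they were left out of the counts above. Fitted with all probe sets, 5 of the 28 rose and 0 fell with the LSD2 shRNA, where 3.63% of all probe sets were higher and 4.47% lower. In the vector comparison 10 rose and 8 fell, where 27.4% of all probe sets were higher and 24.8% lower. The largest rises with the LSD2 shRNA were in H2AC18 and H2AC19, a pair of identical H2A genes on chromosome 1 that are known to give polyadenylated transcripts. The first of their sets had 9.17, 9.32 and 9.14 with scramble and 10.33, 10.17 and 10.12 with the LSD2 shRNA, a difference of 1.00 ± 0.09 (adjusted p = 3.8e-05, limma). The second, an _x_at set, had 7.98, 8.09 and 8.00, and 9.08, 8.95 and 8.83, a difference of 0.93 ± 0.11 (adjusted p = 3.1e-04, limma). The third set was at 0.13 and was not called, so the sets disagree. With LSD2/eGFP/Flag all 3 fell, at -0.46, -0.69 and -0.56, the same pair of directions as H1-2.

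Among 5 sets shared by H2B genes, 3 were not called with the LSD2 shRNA. The other 2, both _x_at sets, rose by 0.39 and 0.38. The second lost its call without scramble replicate 3 (adjusted p = 0.0579, limma) or LSD2 shRNA replicate 3 (0.0544). A further 8 shared sets name both H3-3A and H3-3B. With LSD2/eGFP/Flag the 4 that also name the pseudogene H3P6 rose, by 0.36 to 0.50, as H3-3A did. Of the 4 listed for both H3.3 genes with the microRNA gene MIR4738, 3 fell (-0.60, -0.60 and -0.64) and 1 rose (0.41). One H3P6 set rose with the LSD2 shRNA, at 0.33 ± 0.09 (adjusted p = 0.0416, limma), and it lost its call without scramble replicate 1 (0.184), scramble replicate 2 (0.103), LSD2 shRNA replicate 1 (0.166) or LSD2 shRNA replicate 2 (0.128). The other 7 were not called. H2BC5 has a second set of its own, at 0.59 ± 0.12 with the LSD2 shRNA (adjusted p = 0.00926, limma) and -0.30 ± 0.12 in the vector comparison (adjusted p = 0.0487, limma), the latter beside -0.05 in the set used. The rise was at an adjusted p of 0.0503 (limma) without LSD2 shRNA replicate 1. The fall lost its call without eGFP/Flag replicate 1 (0.0843), eGFP/Flag replicate 2 (0.175), replicate 2 of LSD2/eGFP/Flag (0.0564) or its replicate 3 (0.223).

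**Figure D5:**
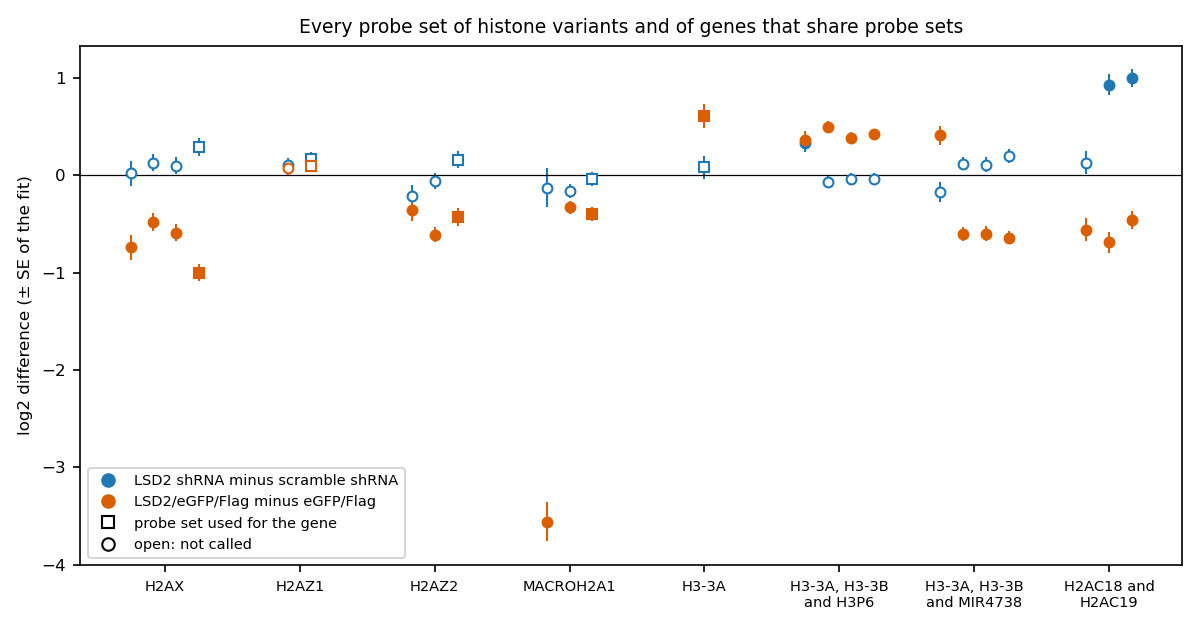
Log2 difference with its standard error of each probe set of H2AX, H2AZ1, H2AZ2, MACROH2A1 and H3-3A and of the sets shared by the H3.3 genes and by H2AC18 and H2AC19, in both comparisons; squares are the sets used for a gene, and open points were not called. The 4 H2AX sets all lie below 0 in the vector comparison, and the 3 MACROH2A1 sets run from -0.33 to -3.56.

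Other genes of histone supply were counted from 4 lists. Of 16 measured genes of histone mRNA transcription and processing, 3 rose and 1 fell with the LSD2 shRNA, with a median of 0.16. SLBP, which binds the stem-loop of histone mRNA, rose by 0.45 ± 0.07 (adjusted p = 0.00103, limma). In the vector comparison 3 of the 16 rose and 6 fell, with a median of 0.00. CCNE1, the cyclin E that activates histone gene transcription through NPAT, rose by 1.64 ± 0.08 (adjusted p = 1.0e-09, limma). ZNF473, a zinc finger protein of histone pre-mRNA cleavage, fell by 1.10 ± 0.09 (adjusted p = 2.0e-07, limma), and CCNE2 fell by 0.68 ± 0.20 (adjusted p = 0.00887, limma).

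Of 36 measured DNA replication genes, 6 rose and none fell with the LSD2 shRNA (median 0.14), among them the primase subunit PRIM1 at 0.53 ± 0.09 (adjusted p = 0.00214, limma) and GINS3 at 0.39 ± 0.07 (adjusted p = 0.00543, limma). In the vector comparison 22 rose and 5 fell (median 0.34), led by the polymerase alpha subunit POLA2 at 1.72 ± 0.10 (adjusted p = 4.5e-09, limma). These genes move with the S phase that replication-dependent histone genes also follow, and their part in the histone differences was not tested.

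Of 25 histone chaperones, none rose and NAP1L4 fell with the LSD2 shRNA, by 0.43 ± 0.08 (adjusted p = 0.00505, limma). With LSD2/eGFP/Flag 15 rose and 3 fell (median 0.36). RBBP4, a subunit of the CAF-1 assembly factor, rose by 1.45 ± 0.09 (adjusted p = 6.8e-09, limma), and HJURP, the chaperone of the centromeric H3 variant, fell by 2.15 ± 0.09 (adjusted p = 1.6e-10, limma). Of 13 measured genes of the complexes that exchange H2A.Z, 3 rose and 1 fell with the LSD2 shRNA (median 0.14), with YEATS4 at 0.70 ± 0.14 (adjusted p = 0.00537, limma). There, with LSD2/eGFP/Flag, 6 rose and 3 fell (median -0.01), with SRCAP, the ATPase that deposits H2A.Z, at 0.85 ± 0.10 (adjusted p = 7.7e-06, limma) and VPS72, the complex's H2A.Z-binding subunit, at 0.81 ± 0.07 (adjusted p = 5.3e-07, limma). These counts stand beside 10.5% of all genes called with the LSD2 shRNA and 57.0% in the vector comparison. The LSD2 shRNA counts could be smaller with 1 array left out. Without scramble replicate 1, 1 processing gene, 3 replication genes and 1 H2A.Z exchange gene rose and none of these fell. Without scramble replicate 2, 2 replication genes rose. Calls over all genes also went down, from 598 higher and 662 lower to 364 and 388 without scramble replicate 1. They went to 433 and 399 without scramble replicate 2. The calls of SLBP, PRIM1, GINS3, NAP1L4 and YEATS4 held with each array left out.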

How the data were processed

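The log2 values of 22277 probe sets that the authors deposited come from 12 Affymetrix 3′ expression arrays and were made with RMA, per the submitters' processing notes. Which program ran RMA, and its version, is not given in the sources used here. Of these probe sets, 62 controls were left out. The platform annotation, which can be old, gave 1 gene to 19064 probe sets, several to 1043 and none listed to 2108, and 19052 of the 19064 matched the RefSeq gene table (GRCh38.p14) by gene identifier. The brightest single-gene probe set over all 12 arrays stood for a gene, which left 11963 genes. The tests used limma 3.58.1 under R 4.3.3 (lmFit and eBayes, a mean for each group, two-sided, 8 residual and 4.82 prior degrees of freedom), and the fit was tested on simulated data. Other and shared probe sets were taken from a fit of all 22215 probe sets. The number of arrays limits the precision. Every histone gene called in either comparison is named with the value of every array, the others with their differences, and of the 4 lists of histone supply genes only a few of the called genes with the largest differences. The members and lists were chosen with earlier results of these data known.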

Additional observations from a re-analysis of the deposited data

How the results depend on the processing

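The alternatives were a replicate block, a fit of the compared groups only, cyclic loess, quantile and equal-median scaling, leaving out dim genes or _x_at probe sets, averaging a gene's probe sets, array weights, an intensity trend, a stricter p or size threshold, and each array left out singly. A fit of every probe set was added after seeing the data, and its calls were recomputed only with each array left out. With the LSD2 shRNA, leaving out _x_at probe sets gave 2 histone genes higher (H1-2 and H2BC12, of 42 tested), and array weights gave 11 higher and 2 lower. In the vector comparison, leaving out _x_at probe sets gave 6 higher and 10 lower of 42 tested, where the main fit gave 9 and 10. Over all genes, array weights moved the LSD2 shRNA counts from 598 higher and 662 lower to 1128 and 1222. Requiring a difference of at least 0.5 gave 3 lower in the vector comparison. Leaving out 1 array gave 5 to 7 higher and 0 to 1 lower with the LSD2 shRNA, 9 to 9 higher and 9 to 11 lower in the vector comparison, and 15 to 18 whose effects differ. H1-10 was called lower with the LSD2 shRNA without scramble replicate 3 (adjusted p = 0.0480, limma), and H4C5 without LSD2 shRNA replicate 3 (0.0410). In the same fits, 1 to 3 processing genes, 2 to 5 replication genes and 1 to 3 H2A.Z exchange genes rose with the LSD2 shRNA. An adjusted p under 0.01 left 1, 2 and 1 of these, a difference of at least 0.5 left 0 processing genes and 1 replication gene, and array weights gave 5 processing and 11 replication genes. The few falls of the 4 lists with the LSD2 shRNA ran from 0 to 3 over the alternatives. In the vector comparison a difference of at least 0.5 left 1 processing gene higher and 2 lower, 7 chaperones and 3 exchange genes higher, and 3 replication genes lower. There 5 chaperones fell with cyclic loess, equal medians or dim genes left out, and 5 exchange genes with averaged probe sets. For the 49 histone genes, the counts under alternatives not given here stayed within 1.5 times. No call of a named gene or probe set changed direction under any alternative run. The compared groups alone could not give the difference between effects. The shift to equal medians moved the counts over all genes with the LSD2 shRNA from 598 higher and 662 lower to 760 and 515, and in the vector comparison from 3701 and 3123 to 3331 and 3456. Deviations of same-numbered arrays correlated at 0.0204, 0.508 and 0.446 in the shRNA arrays and at -0.142, 0.175 and 0.182 in the vector arrays. The labels do not say that equal numbers pair the samples, and the main fit did not pair them. These values do not settle whether they are paired. In the shRNA arrays 5 of 6 correlated best with their own number, and in the vector arrays 4 of 6. With the replicate block, 8 histone genes rose and 0 fell with the LSD2 shRNA, 9 rose and 10 fell in the vector comparison, and 18 effects differed. RMA values carry no detection calls, so for the 24 dim members a missing call says little.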
